A study of Homo sapiens with 4 samples.

Results

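The S100 and annexin genes encode 2 families of calcium-binding proteins that act at membranes and on the cytoskeleton. They were taken from the expression table by symbol, as protein-coding rows named S100A, S100B, S100P or S100Z, or ANXA followed by a number alone. This gave 33 of the 48162 genes in the table: 20 S100 genes, 12 annexin genes and S100PBP, whose product binds S100P but is not itself an S100 protein and which was therefore left out of the S100 summaries. RNA was sequenced from the human triple-negative breast cancer line MDA-MB-231 after 24 h with MGH-CP1 at 10 µM (2 libraries) or with vehicle (2 libraries). MGH-CP1 is named in the series title as an inhibitor of TEAD palmitoylation, TEAD being the transcription factor family through which YAP and TAZ, the Hippo pathway effectors, reach DNA. Both groups were the same line in the same serum-containing medium, the vehicle is not named in the labels, and results from 1 line speak for that line. The labels do not say that replicates came from separate cultures, so each p-value rests on the spread among these 4 libraries alone, and that spread may be technical.

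S100 proteins are short, mostly dimeric proteins with a pair of EF-hands, the loops that hold calcium. Calcium binding opens a surface through which they dock on targets such as myosin, annexins and p53, and several are also secreted and act on receptors such as RAGE and TLR4. Annexins bind acidic phospholipids in a calcium-dependent way through repeats of a conserved core, and they organise membrane domains, help to reseal torn plasma membrane and take part in vesicle traffic. The families meet in complexes, of which the best known is the tetramer of annexin A2 and S100A10 at the inner face of the plasma membrane.

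Each library held between 16790645 and 18485701 reads counted over the listed genes, and reads assigned to no gene are not known. Levels are in FPKM, that is, fragments over gene length in kilobases and over library depth, and 11790 genes averaging 1 FPKM or more were tested. The call required an adjusted p under 0.05 from limma on log2(FPKM + 1), and 45.0% of tested genes met it. VIM, the mesenchymal filament gene, stood at 199 and 193 FPKM with MGH-CP1 and at 171 and 147 FPKM with vehicle. A list of 6 markers of MDA-MB-231 and mesenchymal breast cancer cells held VIM, CD44, FN1, AXL and the keratin genes KRT8 and KRT18. Those keratins are epithelial, so the list does not read mesenchymal genes alone. The 6 markers summed to 1371 to 1380 FPKM with MGH-CP1 and 1462 to 1473 FPKM with vehicle. Of these, 3 were called higher and 2 lower (limma, against 20.0% and 25.1% of all tested genes). The hormone receptor gene ESR1 had at most 1 read in a library. The 5 luminal markers that include ESR1 summed to 28.5 to 28.8 FPKM with MGH-CP1 and 28.9 to 30.4 FPKM with vehicle, and 2 of them were tested. Of 8 neutrophil and monocyte markers only CD14 passed the limit for testing, and PTPRC stayed at or under 0.0895 FPKM. All 3 marker groups of neutrophils and monocytes, fibroblasts and endothelial cells had sums under 4 FPKM in each library. Sums were larger for the 2 epithelial markers, at 8.40 to 10.8 FPKM over the libraries, and for the 10 keratinocyte markers, at 13.4 to 17.4 FPKM. In each of these lists 1 gene passed the limit for testing.

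More members were higher with MGH-CP1 than were lower. Among the 20 members that passed the limit for testing, 9 were called higher (limma, against 20.0% of all tested genes) and 1, ANXA3, was called lower (against 25.1%). With voom on recovered reads 10 were called higher and 1 lower, against 22.1% and 26.7% of tested genes. The median log2 fold change was 0.25 for the 9 tested S100 genes and 0.28 for the 10 tested annexin genes, against -0.02 for all tested genes. Both MGH-CP1 libraries lay above both vehicle libraries for 14 of the 20, a pattern shown by 34.7% of all tested genes, and below them for ANXA3 and S100PBP, against 39.4%. The changes were modest, with only ANXA9 changing about 2-fold (ratio of mean FPKM 2.10). The number called higher was 5 without MGH-CP1 replicate 1 and 4 without MGH-CP1 replicate 2, and it was 13 without vehicle replicate 1. In bulk RNA a change in level per cell and a change in the share of cells that carry a transcript cannot be told apart.

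**Figure D1:**
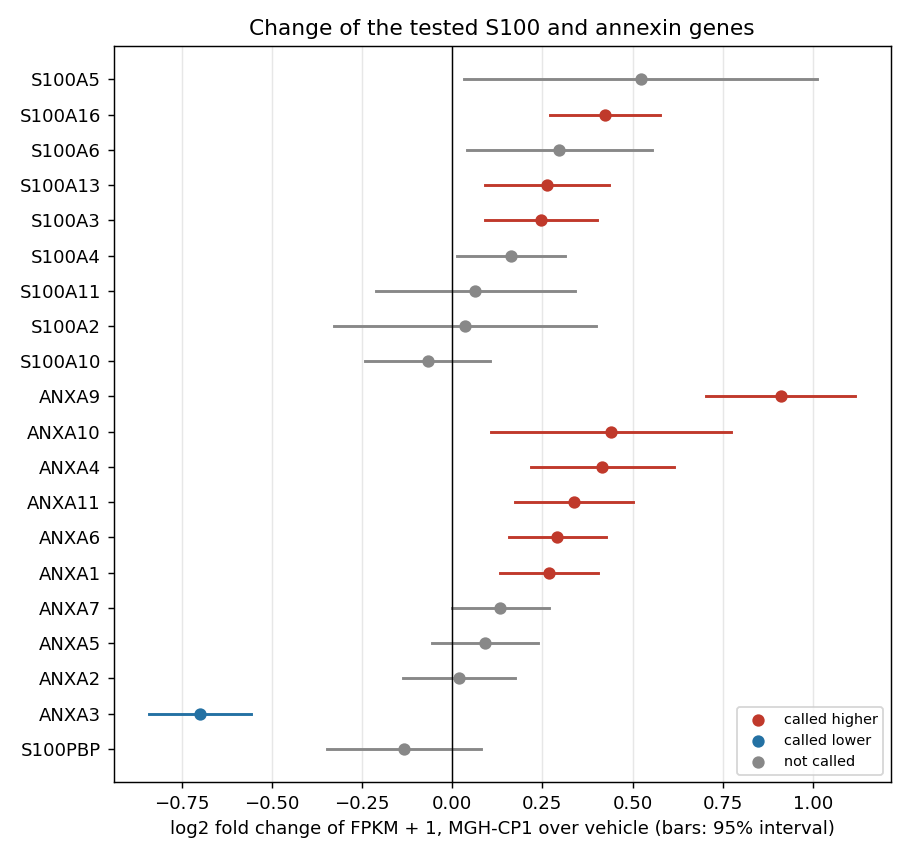
Log2 fold change of FPKM + 1, MGH-CP1 over vehicle, for the 20 tested members, with 95% intervals from the limma fit (bars) and colour for the call at an adjusted p under 0.05. S100 genes run at the top, annexin genes below them and S100PBP last, and ANXA9 and ANXA3 stand farthest from 0.

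Among the S100 genes S100A6 was by far the most abundant. S100A6, also called calcyclin and known for its rise in growing fibroblasts, had 2308 and 2102 FPKM with MGH-CP1, against 1958 and 1642 FPKM with vehicle (ENSG00000197956, hg19 chromosome 1, 153507075 to 153508720, minus strand). Both treated libraries were above both vehicle libraries, but the vehicle pair differed from each other about as much as the groups did. The log2 fold change of 0.30 ± 0.11 (SE) did not pass (limma, adjusted p = 0.0606), while voom on recovered reads called it higher (adjusted p = 0.00519). With the replicate number as a further term S100A6 was also called higher (limma, adjusted p = 0.0144). With 1 library left out, its log2 difference was 0.42 without vehicle replicate 1, where it was called (limma, adjusted p = 0.00411), and 0.17 without vehicle replicate 2, where it was not (limma, adjusted p = 0.169). S100A6 made up 58.2% to 61.7% of the summed S100 FPKM in each library. That sum was 3743 and 3428 FPKM with MGH-CP1 and 3244 and 2820 FPKM with vehicle. The sums did not overlap between groups, and with 2 libraries against 2 an exact two-sided permutation test cannot go below p = 0.333, the value found here. S100 reads were 0.284% and 0.261% of all reads counted over genes with MGH-CP1, against 0.246% and 0.216% with vehicle.

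S100A16 showed the firmest rise of its family. This widely expressed member, found in the nucleolus and cytoplasm, had 323 and 297 FPKM with MGH-CP1 and 232 and 229 FPKM with vehicle (ENSG00000188643, hg19 chromosome 1, 153579362 to 153585621, minus strand). The groups were well apart and the vehicle libraries nearly equal, giving a log2 fold change of 0.42 ± 0.06 in the limma fit (adjusted p = 0.00183). S100A16 was called higher under all 10 alternatives run, with a log2 fold change of 0.36 to 0.48 when 1 library was left out.

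A pair of less abundant neighbours in the same gene cluster, S100A3 and S100A13, were also called higher. S100A3, known from hair follicle cuticle cells, had 33.1 and 32.5 FPKM with MGH-CP1 and 28.8 and 26.2 FPKM with vehicle (log2 fold change 0.25 ± 0.07; limma, adjusted p = 0.0194). S100A3 lies inside S100A4 on the same strand, and S100A4 averaged 492 FPKM, so reads of one could be counted for the other. S100A13, which takes part in the unconventional release of FGF1, had 18.6 and 18.1 FPKM with MGH-CP1 and 16.0 and 14.3 FPKM with vehicle (log2 fold change 0.26 ± 0.07; limma, adjusted p = 0.0235). Its end overlaps CHTOP, at a mean of 16.8 FPKM, on the opposite strand, and whether counting used strand is not given in the sources used here. Neither call was firm. S100A3 was not called without MGH-CP1 replicate 1 or without MGH-CP1 replicate 2 (limma, adjusted p = 0.118 and 0.0897), nor was S100A13 (limma, adjusted p = 0.134 and 0.0870). S100A13 was also lost without vehicle replicate 2 (limma, log2 fold change 0.19, adjusted p = 0.0576).

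The metastasis-associated gene S100A4, whose product binds non-muscle myosin, had 532 and 508 FPKM with MGH-CP1 and 469 and 459 FPKM with vehicle. The libraries of the groups did not overlap, yet the difference of 0.16 ± 0.06 on the log2 scale did not pass (limma, adjusted p = 0.0741; 95% interval 0.01 to 0.31). S100A4 was called higher by voom (adjusted p = 0.0333) and with the replicate number as a further term (limma, adjusted p = 0.0432). S100A5, a low-abundance neighbour, had 3.75 and 4.32 FPKM with MGH-CP1 and 3.43 and 1.76 FPKM with vehicle, from as few as 21 reads, the fewest of any tested member. Its log2 difference of 0.52 ± 0.21 did not pass (limma, adjusted p = 0.0783). Without vehicle replicate 1, the library with the higher vehicle value, S100A5 was called higher (limma, log2 fold change 0.86, adjusted p = 0.000539), and without vehicle replicate 2 its log2 difference was 0.18 (limma, adjusted p = 0.273).

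S100A10, S100A11 and S100A2 did not separate the groups. S100A10, the light chain of the annexin A2 tetramer, which has lost calcium binding, had 194 and 175 FPKM with MGH-CP1 and 201 and 185 FPKM with vehicle (log2 difference -0.07, 95% interval -0.24 to 0.11; limma, adjusted p = 0.489). S100A11, a partner of annexin A1, had 291 and 254 FPKM with MGH-CP1 and 292 and 231.4 FPKM with vehicle (log2 difference 0.06, 95% interval -0.21 to 0.34; limma, adjusted p = 0.686). S100A2, first described as lost in breast tumour cells, had 38.1 and 35.6 FPKM with MGH-CP1, inside the range of the vehicle libraries at 43.5 and 29.7 FPKM (log2 difference 0.03, 95% interval -0.33 to 0.40; limma, adjusted p = 0.871). The value of S100A2 rested on which vehicle library was kept. Without vehicle replicate 1 it was called higher (limma, log2 fold change 0.30, adjusted p = 0.00403), and without vehicle replicate 2 it was called lower (limma, log2 fold change -0.23, adjusted p = 0.0147). S100A11 was called higher without vehicle replicate 1 (limma, log2 fold change 0.23, adjusted p = 0.0375).

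**Figure D2:**
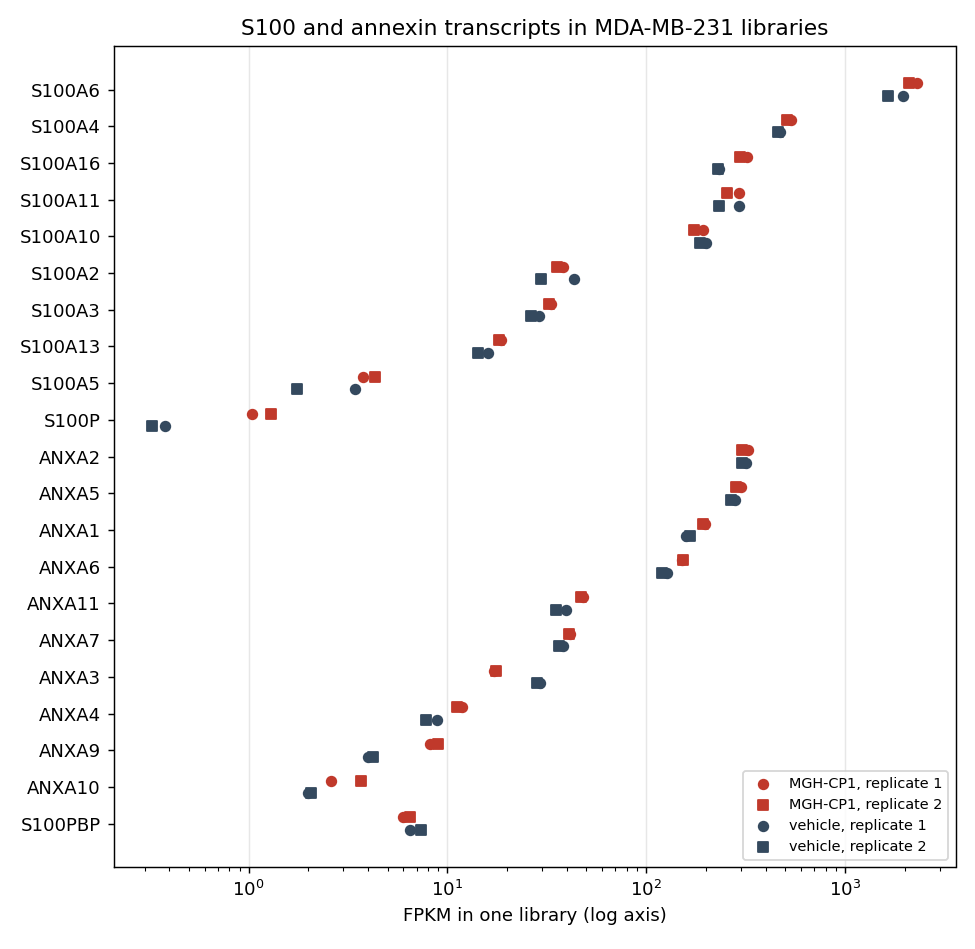
FPKM in each library on a log axis for the 20 tested members and S100P, with MGH-CP1 libraries (red) above vehicle libraries (dark) for each gene and marker shape for the replicate number. Levels span from under 1 FPKM for S100P in vehicle to 2308 FPKM for S100A6, and the groups are farthest apart for S100P, ANXA9 and ANXA3.

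The vehicle libraries differed from each other in the same direction for every tested S100 gene. Replicate 1 was above replicate 2 for 8 of 9 with MGH-CP1 and for 9 of 9 in vehicle. Over all 11790 tested genes replicate 1 was above in 5657 with MGH-CP1 and 5730 in vehicle. S100 transcripts are short, with a median gene length of 856 bases in the table against 3266 for all tested genes. Among the 1259 tested genes under 1300 bases, the log2(FPKM + 1) value of replicate 1 exceeded that of replicate 2 by a median of 0.05 with MGH-CP1 and 0.11 with vehicle (above in 737 and 815 of them), and for the tested S100 genes by 0.10 and 0.15. Genes under 1300 bases were called higher in 12.7% of cases and lower in 20.7%, and their median log2 fold change was -0.03. The part of length in the spread of the S100 values was not tested.

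**Figure D3:**
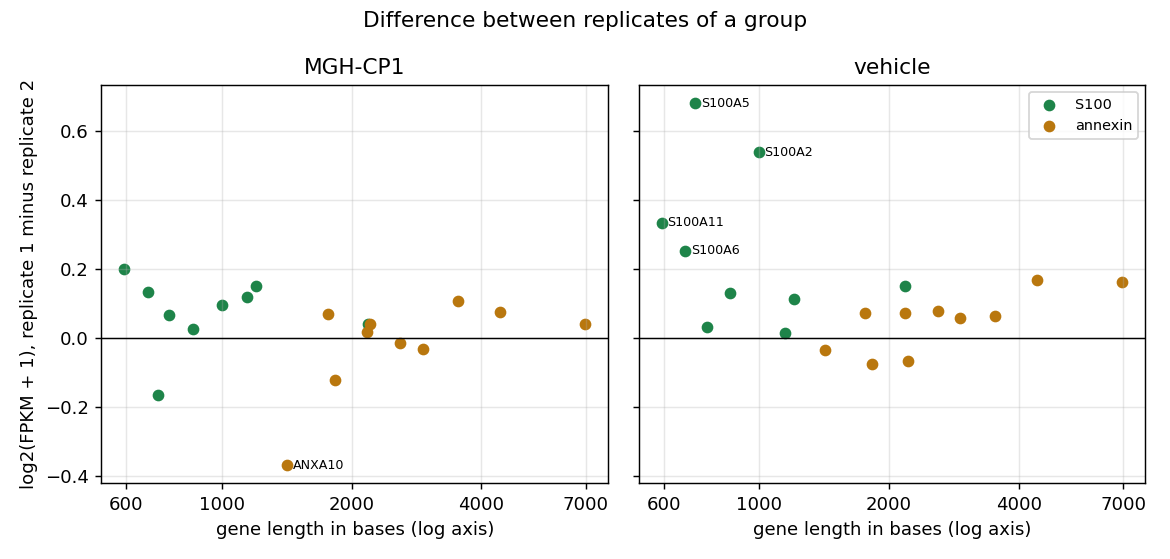
Difference in log2(FPKM + 1) between replicate 1 and replicate 2 of a group, MGH-CP1 left and vehicle right, against gene length in bases on a log axis, for the 9 tested S100 genes (green) and 10 tested annexin genes (ochre). In vehicle all 9 S100 points lie above 0, with S100A5, S100A2, S100A11 and S100A6 highest.

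Of the 11 S100 genes below the limit for testing, S100P came nearest to it. S100P, a gene first cloned from placenta and raised in several carcinomas, had 1.04 and 1.29 FPKM with MGH-CP1 and 0.381 and 0.326 FPKM with vehicle (ENSG00000163993, hg19 chromosome 4, 6694796 to 6698897, plus strand). These rested on 23 and 28 reads with MGH-CP1 and on 9 and 7 reads with vehicle, a ratio of mean FPKM of 3.30. With no filter on low values S100P was called higher (log2 fold change 0.68 ± 0.11; limma, adjusted p = 0.0301). S100A14 had 6 and 5 reads with MGH-CP1 and 4 and 1 with vehicle. S100A1 had 8 and 7 reads with MGH-CP1 and 2 and 3 with vehicle, and it lies within S100A13 on the opposite strand, so these may not be its own. S100A8 and S100Z had 1 read each, both in vehicle replicate 2. The other 6, which were S100A7, S100A7A, S100A7L2, S100A9, S100A12 and S100B, had no read in any library. A count of 0 allows up to 3 reads in a library, which is 0.0412 to 0.373 FPKM at the length of these genes and covers counting error only. S100A8, S100A9 and S100A12 are abundant in neutrophils and monocytes, and S100A7 in inflamed skin.

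The active and silent S100 genes sat close together on chromosome 1. The block from S100A10 to the end of S100A13 (hg19 chromosome 1, 151955391 to 153606873) held 17 of the 20 S100 genes and 45 other protein-coding genes, most of which build the cornified envelope of skin. S100A10 and S100A11 lay at one edge at 189 and 267 FPKM (mean of 4 libraries). After them came the 45 other genes, of which 31 had no read in any library and only FLG, at 1.97 FPKM, reached the limit for testing. The inflammatory genes S100A9, S100A12, S100A8, S100A7A, S100A7L2 and S100A7 followed, all at or near 0, and directly next to S100A7 stood S100A6 at 2002 FPKM. S100A4, S100A3, S100A2, S100A16 and S100A13 then followed at 16.8 FPKM or more, broken only by S100A5 and S100A14 at 3.31 and 0.188 FPKM. Of the 9 tested S100 genes of the block, 3 were called higher (limma, against 20.0% of all tested genes). These were S100A3, S100A16 and S100A13, in the stretch from S100A6 onward. S100A6, S100A5, S100A4 and S100A2 in the same stretch were not called, nor were S100A10 and S100A11 at the other edge.

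**Figure D4:**
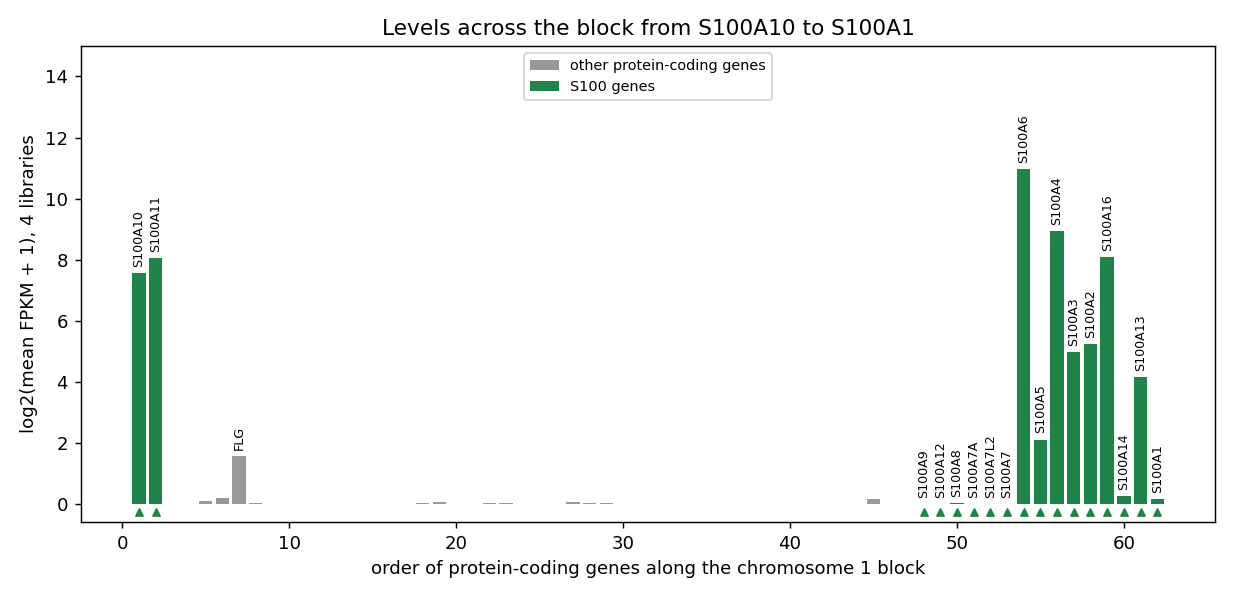
Mean level over the 4 libraries as log2(FPKM + 1) for the protein-coding genes of the chromosome 1 block in their order, with S100 genes in green (triangles mark their places) and other genes in grey. Expressed S100 genes stand at both edges, with a run of genes near 0 between S100A11 and S100A6.

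RefSeq promoter windows, from 250 bases before to 50 bases after a transcript start, were at hand for 29 of the 33 members (42 windows, GRCh38.p14, a newer build than the hg19 of the expression table). The sequences below show the promoters of the most abundant and of a silent S100 gene in the block, of the annexin genes with the largest rise and the fall, and of ANXA1, an abundant gene. Capitals mark CG dinucleotides, and all lines run 5′ to 3′ on the strand of the gene.
S100A6, chr1:153535942-153536241, minus strand: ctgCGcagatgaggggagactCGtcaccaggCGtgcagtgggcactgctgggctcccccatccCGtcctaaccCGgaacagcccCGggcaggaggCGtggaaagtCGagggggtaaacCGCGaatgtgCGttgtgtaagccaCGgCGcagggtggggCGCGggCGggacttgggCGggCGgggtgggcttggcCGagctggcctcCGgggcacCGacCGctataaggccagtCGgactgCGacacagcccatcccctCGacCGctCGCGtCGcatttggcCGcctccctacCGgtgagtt
S100A9, chr1:153357604-153357903, plus strand: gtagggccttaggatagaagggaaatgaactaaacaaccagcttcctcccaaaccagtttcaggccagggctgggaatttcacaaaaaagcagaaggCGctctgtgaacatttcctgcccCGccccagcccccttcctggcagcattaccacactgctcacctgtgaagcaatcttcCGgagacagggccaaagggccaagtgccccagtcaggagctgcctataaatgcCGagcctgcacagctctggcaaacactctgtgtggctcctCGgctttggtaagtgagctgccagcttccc
ANXA9, chr1:150982042-150982341, plus strand: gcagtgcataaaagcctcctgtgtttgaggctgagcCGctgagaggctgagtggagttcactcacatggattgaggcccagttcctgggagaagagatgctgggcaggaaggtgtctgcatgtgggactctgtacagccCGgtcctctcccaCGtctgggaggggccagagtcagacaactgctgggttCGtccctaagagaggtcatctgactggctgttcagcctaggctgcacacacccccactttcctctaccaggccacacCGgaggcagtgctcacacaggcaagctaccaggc
ANXA3, chr4:78551520-78551819, plus strand: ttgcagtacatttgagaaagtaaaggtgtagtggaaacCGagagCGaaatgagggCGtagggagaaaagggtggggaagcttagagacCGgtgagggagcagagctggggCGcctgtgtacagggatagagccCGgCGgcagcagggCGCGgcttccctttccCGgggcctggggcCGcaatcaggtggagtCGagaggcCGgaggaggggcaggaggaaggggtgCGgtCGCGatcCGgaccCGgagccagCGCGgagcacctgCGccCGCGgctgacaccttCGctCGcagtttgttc
ANXA1, chr9:73151615-73151914, plus strand: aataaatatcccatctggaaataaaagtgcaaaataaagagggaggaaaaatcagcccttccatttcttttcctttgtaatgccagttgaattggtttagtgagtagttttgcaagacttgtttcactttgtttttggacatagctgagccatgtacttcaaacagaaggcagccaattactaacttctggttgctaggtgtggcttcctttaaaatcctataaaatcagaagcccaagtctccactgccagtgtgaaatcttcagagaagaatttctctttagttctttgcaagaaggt
The S100A6 window held 31 CG dinucleotides and that of S100A9 held 5. Over the 20 tested members the richest window of each gene held a median of 22.5, with a range of 0 to 44, and over the 9 untested members with a window a median of 4, with a range of 1 to 6. The median over all 34796 promoter windows was 14. It counts every window and not the richest of each gene, so it is not the same measure as the member medians. The ranges overlapped: 6 of the 20 tested members, which were ANXA1, ANXA10, ANXA9, S100A2, S100A3 and S100A5, held no more than 6, the highest of the untested members. The ANXA1 window held no CG, although ANXA1 averaged 178 FPKM, and the abundant S100A4 and S100A16 held 8 each. The window of ANXA9 held 5 and that of ANXA3 held 25.

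The letters GGAATG, the core bound by TEAD proteins, were searched on both strands in the same windows. They occurred in 3 of 42 member windows (7.14%), against 14.0% of all windows, namely in both windows of S100A16 and in one of the windows of S100A5. The AP-1 letters TGANTCA occurred in 6 of 42 (14.3%), against 7.73% of all windows, and did not overlap the GGAATG letters. By gene, GGAATG occurred in 1 of 10 called members and in 1 of 10 tested members not called. TGANTCA occurred in 1 of 10 called members, in 4 of 10 tested members not called and in 1 of 9 untested members. The S100A16 windows are shown with GGAATG in capitals because this gene was the most firmly raised of its family. S100A5, which also held the letters, was not called.
S100A16 first window, chr1:153609306-153609605, minus strand: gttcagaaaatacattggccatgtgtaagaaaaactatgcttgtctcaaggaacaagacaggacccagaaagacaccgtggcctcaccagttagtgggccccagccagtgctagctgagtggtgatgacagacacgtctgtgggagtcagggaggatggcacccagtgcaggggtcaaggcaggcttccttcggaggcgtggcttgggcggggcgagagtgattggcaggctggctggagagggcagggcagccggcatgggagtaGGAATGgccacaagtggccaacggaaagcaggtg
S100A16 second window, chr1:153613088-153613387, minus strand: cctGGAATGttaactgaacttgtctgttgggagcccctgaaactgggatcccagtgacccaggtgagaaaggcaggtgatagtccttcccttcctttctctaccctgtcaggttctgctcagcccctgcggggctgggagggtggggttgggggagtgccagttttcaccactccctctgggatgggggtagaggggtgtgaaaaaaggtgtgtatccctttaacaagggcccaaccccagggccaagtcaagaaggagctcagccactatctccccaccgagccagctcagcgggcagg
The letters lay 16 bases after the start in the first window and at position -247 relative to it in the second. A match of letters is a description of these windows and is not evidence of binding.

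Annexin transcripts as a family were somewhat higher with MGH-CP1. Their summed level was 1103 and 1061 FPKM with MGH-CP1 and 1005 and 970 FPKM with vehicle, with no overlap (exact two-sided permutation test, p = 0.333, the smallest that 2 against 2 allows). Of the 10 tested annexin genes 6 were called higher and 1 lower (limma), against 20.0% and 25.1% of all tested genes. The most abundant, ANXA2 and ANXA5, were not among them.

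ANXA9 rose the most of all tested members. Annexin A9 is an atypical annexin whose calcium-binding sites have been lost. ANXA9 had 8.20 and 9.01 FPKM with MGH-CP1 and 3.97 and 4.24 FPKM with vehicle (ENSG00000143412, hg19 chromosome 1, 150954493 to 150968110, plus strand). Each treated library was about double each vehicle library, from 259 and 279 reads with MGH-CP1 and 134 and 130 reads with vehicle. The log2 fold change was 0.91 ± 0.09 (limma, adjusted p = 0.000238) on the log2(FPKM + 1) scale and 1.07 by voom, and the gene was called higher under all 10 alternatives run. ANXA9 lies on chromosome 1 outside the S100 block.

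ANXA3 was the only tested member called lower. Annexin A3 is known from neutrophil granules and is expressed in many carcinomas. ANXA3 had 17.1 and 17.5 FPKM with MGH-CP1 and 29.3 and 28.1 FPKM with vehicle (ENSG00000138772, hg19 chromosome 4, 79472673 to 79531597, plus strand). The replicates agreed closely and the groups were far apart, giving a log2 fold change of -0.70 ± 0.06 in the limma fit (adjusted p = 0.000155). The call was kept under all 10 alternatives run, with log2 fold changes of -0.73 to -0.67.

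The remaining called annexin genes rose by less. ANXA4, which encodes an annexin of epithelial secretory membranes, had 11.8 and 11.1 FPKM with MGH-CP1 and 8.89 and 7.81 FPKM with vehicle (log2 fold change 0.42 ± 0.08; limma, adjusted p = 0.0064; hg19 chromosome 2, 69947923 to 70053596). ANXA11, whose product has a long disordered N-terminus and tethers RNA granules to lysosomes, had 48.1 and 46.8 FPKM with MGH-CP1 and 39.5 and 35.2 FPKM with vehicle (log2 fold change 0.34 ± 0.07; limma, adjusted p = 0.00672; hg19 chromosome 10, 81910645 to 81965328). For both genes the treated libraries lay above both vehicle libraries, as for 34.7% of all tested genes. The ANXA11 call was narrowly lost without MGH-CP1 replicate 1 (limma, adjusted p = 0.0502).

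ANXA6 and ANXA1 were the abundant annexin genes that rose. ANXA6, which encodes the annexin with a doubled core and is involved in cholesterol traffic and membrane repair, had 151 and 152 FPKM with MGH-CP1 and 127 and 120 FPKM with vehicle (log2 fold change 0.29 ± 0.06; limma, adjusted p = 0.00549). ANXA1, the glucocorticoid-induced and anti-inflammatory annexin that signals through formyl peptide receptors, had 198 and 192 FPKM with MGH-CP1 and 158 and 165 FPKM with vehicle (log2 fold change 0.27 ± 0.06; limma, adjusted p = 0.00801). Replicates lay closer together than the groups for both genes. The ANXA6 call was lost without MGH-CP1 replicate 2 (limma, adjusted p = 0.0563), and the ANXA1 call without MGH-CP1 replicate 1 or without MGH-CP1 replicate 2 (limma, adjusted p = 0.0892 and 0.0550).

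ANXA10, a gene of gastric epithelium, was called higher from few reads. It had 2.61 and 3.66 FPKM with MGH-CP1 and 1.99 and 2.06 FPKM with vehicle, from 49 to 88 reads in a library (log2 fold change 0.44 ± 0.14; limma, adjusted p = 0.0386). The treated libraries differed from each other by more than the lower of them differed from vehicle. The call was lost without MGH-CP1 replicate 2 (limma, log2 fold change 0.26, adjusted p = 0.252), without vehicle replicate 1 (limma, adjusted p = 0.0597) and by voom (adjusted p = 0.0595).

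Of the annexin genes not called, ANXA2, the heavy chain of the tetramer with S100A10, had 326 and 303 FPKM with MGH-CP1 and 317 and 303 FPKM with vehicle (log2 difference 0.02, 95% interval -0.14 to 0.17; limma, adjusted p = 0.83). The groups overlapped. Its processed copy ANXA2P2 was listed at 3.41 to 4.67 FPKM and could share reads with it. ANXA5, whose protein is the common probe for exposed phosphatidylserine, had 299 and 284 FPKM with MGH-CP1 and 281 and 267 FPKM with vehicle (log2 difference 0.09, 95% interval -0.06 to 0.24; limma, adjusted p = 0.278). ANXA7, the synexin gene, had 41.3 and 40.8 FPKM with MGH-CP1 and 38.3 and 36.4 FPKM with vehicle, a log2 difference of 0.13 ± 0.06 (limma, adjusted p = 0.0975). ANXA7 was called higher without vehicle replicate 1 (limma, log2 fold change 0.17, adjusted p = 0.0407).

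ANXA8 and ANXA13 were below the limit for testing, with at most 2 reads in a library. ANXA8 has near-identical copies, ANXA8L1 and ANXA8L2, which the rule did not take and between which reads could be split. ANXA8L2 had 4.73 and 4.80 FPKM with MGH-CP1 and 3.16 and 3.72 FPKM with vehicle (log2 fold change 0.38 ± 0.10; limma, adjusted p = 0.0192), and ANXA8L1 was not called (limma, adjusted p = 0.385). S100PBP had 6.0 and 6.46 FPKM with MGH-CP1 and 6.50 and 7.38 FPKM with vehicle, a log2 difference of -0.13 ± 0.09 (limma, adjusted p = 0.268). It overlaps YARS, at a mean of 42.5 FPKM, on the opposite strand.

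Genes whose proteins pair with each other were compared as ratios of FPKM within a library. The ratio of ANXA2 to S100A10 FPKM was 1.68 and 1.73 with MGH-CP1 and 1.58 and 1.63 with vehicle. For ANXA1 to S100A11 it was 0.680 and 0.759 with MGH-CP1 and 0.541 and 0.715 with vehicle. For ANXA11 to S100A6, whose products also bind each other, it was 0.0208 and 0.0222 with MGH-CP1 and 0.0202 and 0.0214 with vehicle. Only the ANXA2 to S100A10 ratio did not overlap between the groups. The gap between its groups, 1.63 to 1.68, was no wider than the spread within each group, and it was not tested. Gene lengths in the table can exceed that of the transcript in use, so these ratios compare libraries and do not give the proportion of molecules.

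Partners and receptors of the families were called in both directions. Of 17 tested genes of 21 listed, 5 were called higher and 5 lower (limma), against 20.0% and 25.1% of all tested genes. The summed level of the list was 1387 to 1418 FPKM with MGH-CP1 and 1480 to 1499 FPKM with vehicle. The 3 called genes with the largest change were all higher. AHNAK2, related to the annexin A2 and S100A10 scaffold AHNAK, had 21.1 and 22.6 FPKM with MGH-CP1 and 9.44 and 11.4 FPKM with vehicle, a log2 fold change of 1.01 ± 0.09. TLR4, a receptor for S100A8 and S100A9, had 10.99 and 11.02 FPKM with MGH-CP1 and 5.81 and 6.73 FPKM with vehicle (0.73 ± 0.09 on the log2 scale). FPR1, a formyl peptide receptor that annexin A1 peptides engage, had 9.15 and 8.76 FPKM with MGH-CP1 and 4.96 and 5.58 FPKM with vehicle (0.67 ± 0.09). All 3 had higher values in both treated libraries than in either vehicle library, as 34.7% of all tested genes did. They were picked by call and size of change, so this adds nothing to their calls. The ligand genes S100A8 and S100A9 had at most 1 read.

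Annexin A2 and S100A10 bring plasminogen and its activators together at the cell surface, and the list for that system also held F3 and TFPI, which belong to the tissue factor pathway of coagulation. Of 10 tested genes of 12 listed, 4 were called lower and 2 higher (limma), against 25.1% and 20.0% of all tested genes. PLAU, the urokinase gene, had 24.9 and 21.5 FPKM with MGH-CP1 and 69.7 and 66.5 FPKM with vehicle (log2 fold change -1.52 ± 0.08). F3, which encodes tissue factor, the starter of coagulation and not a plasminogen activator, had 96.8 and 91.7 FPKM with MGH-CP1 and 194 and 199 FPKM with vehicle (-1.05 ± 0.06 on the log2 scale). PLGRKT, a plasminogen receptor gene, had 4.47 and 3.73 FPKM with MGH-CP1 and 6.38 and 7.48 FPKM with vehicle (-0.64 ± 0.11). These falls stood beside ANXA2 and S100A10 values that did not separate the groups.

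Other calcium sensors gave mixed results. Among EF-hand genes outside the S100 family, 6 of 23 tested were called higher and 3 lower (limma), against 20.0% and 25.1% of all tested genes. Their median log2 fold change was 0.02, against -0.02 for all tested genes. CAPN1, the large subunit of a calcium-activated protease, had 157 and 160 FPKM with MGH-CP1 and 111 and 108 FPKM with vehicle (0.53 ± 0.05). EFHD2, an actin-binding EF-hand gene, had 152 and 153 FPKM with MGH-CP1 and 232 and 218 FPKM with vehicle (-0.56 ± 0.06). RCN3, of the secretory pathway, had 5.38 and 7.20 FPKM with MGH-CP1 and 4.45 and 4.58 FPKM with vehicle, and its call was lost without MGH-CP1 replicate 2 (limma, adjusted p = 0.255) and without vehicle replicate 1 (limma, adjusted p = 0.0567).

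Among other membrane repair and calcium-dependent lipid-binding genes, 5 of 18 tested were called higher and 2 lower (limma), again beside 20.0% and 25.1% of all tested genes. Their median log2 fold change was 0.06. The copine gene CPNE8 had 12.0 and 12.4 FPKM with MGH-CP1 and 8.64 and 9.42 FPKM with vehicle (0.40 ± 0.08). ESYT2, which tethers endoplasmic reticulum to plasma membrane, had 69.9 and 71.5 FPKM with MGH-CP1 and 52.1 and 57.0 FPKM with vehicle (0.37 ± 0.06). DYSF, the dysferlin gene of membrane repair, had 10.0 and 10.9 FPKM with MGH-CP1 and 7.85 and 7.97 FPKM with vehicle (0.36 ± 0.08), a call lost without MGH-CP1 replicate 2 (limma, adjusted p = 0.0729). Each of the 3, picked by call and size of change, was higher in both treated libraries, as were 34.7% of all tested genes. DYSF also stood on the list of partners and receptors and was counted among the genes called higher there.

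The large fused-type relatives of S100 genes, which carry an S100 domain at the front of a long structural protein of skin, were nearly silent. Of 8 such and other S100 genes outside the rule, 3 had no read and only FLG was tested. FLG, the filaggrin gene, had 0.998 and 1.11 FPKM with MGH-CP1 and 2.56 and 3.22 FPKM with vehicle (log2 fold change -0.92 ± 0.13; limma, adjusted p = 0.00136). Its groups were far apart, in the opposite direction to the S100 genes called in the same block. FLG overlaps FLG-AS1 on the opposite strand, at a mean of 1.38 FPKM, so its value is uncertain. FLG-AS1 had at most 98 reads in a library and FLG at least 220, and the part of shared reads was not tested.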

How the data were processed

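The authors deposited 1 table of FPKM values for 48162 genes with their length and hg19 position. CASAVA 1.8, STAR and hg19 are named in the submitters' processing notes. For the read counter, its strand setting and the annotation, the sources used here name nothing. FPKM times length gave whole reads in every library (100% of values above 0 within 0.001 of a whole number), so the reads counted over genes were known. Precision is limited by 2 libraries a group.

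Log2(FPKM + 1) values of genes averaging 1 FPKM or more were fitted in limma 3.58.1 (R 4.3.3) with group as the only term and a variance trend, and p-values were adjusted by Benjamini-Hochberg over 11790 genes. Fold changes on this scale understate changes of low genes. The fit was tested on simulated data. Python 3.11.15, pandas 2.3.3 and scipy 1.17.1 made the summaries. Replicates differed by more than sampling noise (median chi-square per gene 1.05 with MGH-CP1 and 1.78 with vehicle, where sampling alone gives 0.455), so none was a copy. Members and lists were chosen with earlier results of these data known. Every member of at least 1 FPKM was named, and of each other list the 3 called genes with the largest change. Alternatives were a pseudocount of 0.1, no filter, a filter at 5 FPKM, median-of-ratios scaling, voom on recovered reads, a replicate block and each library left out.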

Additional observations from a re-analysis of the deposited data

How the results depend on the processing

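With each library left out in turn, the number of members called higher ranged from 4 to 13 and the number called lower from 1 to 2; over all genes the counts were 1460 to 2556 higher and 2052 to 3087 lower. The log2 fold change of S100A2 ranged from -0.23 to 0.30, that of S100A11 from -0.10 to 0.23, that of S100A10 from -0.14 to 0.0073 and that of ANXA2 from -0.034 to 0.073, so these changed sign; the cause was not tested. Calls in the other lists ranged from 1 to 2 higher for plasminogen activation, from 3 to 7 higher and 1 to 5 lower for EF-hand genes, and from 2 to 7 higher and 1 to 2 lower for membrane repair genes. With no filter on low values, 1568 genes were called higher, and the counts were 1 higher for plasminogen activation, 3 higher for EF-hand genes, and 3 higher and 1 lower for membrane repair genes; the median over annexin genes with a read was 0.20, since it then covers untested members. At 5 FPKM, FLG left the test, giving 0 lower among the fused-type genes, and 1 plasminogen activation gene was higher. S100A3, S100A13 and ANXA10 were not called with no filter (limma, adjusted p = 0.0719, 0.0850 and 0.176). Over the genes named and their alternatives, 290 values kept direction and call, 19 lost the call, 12 gained it and 7 reversed. Median-of-ratios scaling called 11 members higher, adding S100A6 and S100A4 (limma, adjusted p = 0.0498 and 0.0499). Over all tested genes same-numbered replicates deviated together only weakly (r = 0.05 across 11790 genes), so the labels' numbers were not taken as pairs. That value does not describe the S100 genes, where replicate 1 was above replicate 2 for 8 of 9 with MGH-CP1 and 9 of 9 in vehicle. With the replicate block 11 members were higher and 1 lower, 2453 and 3036 over all genes. S100A6 and S100A4 were among those called higher with the block (limma, adjusted p = 0.0144 and 0.0432). The lowest tested member rested on 21 reads, which limits S100A5 and ANXA10 most.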

Other observations

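Among the keratinocyte markers, 4 had nearly all their reads in 1 library, with at least 10 reads there. IVL, also on that list, had 1 read, in the same library. KRT14 was at 0.958, KRT1 at 0.529, LOR at 0.479 and KRT5 at 0.233 FPKM in MGH-CP1 replicate 2, from 27, 22, 10 and 10 reads. All 4 genes were listed at 0 in MGH-CP1 replicate 1 and vehicle replicate 1, and in vehicle replicate 2 KRT14 alone was listed above 0, at 0.0358 FPKM. The skin-associated members S100A7, S100A7A, S100A8 and S100A9 had no read in MGH-CP1 replicate 2.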
